A study of Arabidopsis thaliana with 64 samples.

Results

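The photoreceptor genes of Arabidopsis thaliana that encode the phytochromes, cryptochromes and phototropins were followed in roots and shoots. Their 9 members, PHYA (AT1G09570), PHYB (AT2G18790), PHYC (AT5G35840), PHYD (AT4G16250), PHYE (AT4G18130), CRY1 (AT4G08920), CRY2 (AT1G04400), PHOT1 (AT3G45780) and PHOT2 (AT5G58140), were chosen by locus among the 26783 loci that the array's probes reached. All 9 had a probe, 15 probes in all, and each gene was represented by its brightest probe by the mean over all arrays. They lie on chromosomes 1 (PHYA, CRY2), 2 (PHYB), 3 (PHOT1), 4 (PHYD, PHYE, CRY1) and 5 (PHYC, PHOT2).

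Phytochromes are red and far-red light receptors that switch between an inactive and an active form and then enter the nucleus, where they act on PIF transcription factors and on the COP1-SPA ubiquitin ligase. Cryptochromes are blue light receptors that also act on COP1-SPA, and phototropins are blue-light-activated kinases of the plasma membrane that steer growth towards light, chloroplast movement and stomatal opening. HY5, a bZIP transcription factor that COP1 marks for degradation in darkness, acts downstream of phytochromes and cryptochromes.

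mRNA was measured on 64 one-colour Agilent arrays, 1 RNA sample each, in 24 groups. In the white-light sets, 4-week-old plants were compared. One set of 24 arrays held WT (Col-0) and hy5-215, a mutant line of HY5, and the other held WT and 35S::BBX32-SRDX::NOSter (BBX32-SRDX below), in which the 35S promoter drives BBX32, a B-box protein, fused to the SRDX repression domain throughout the plant; which of its transgenic lines was used is not given in the sources used here. The light set of 16 arrays held WT seedlings, 3 weeks old, under blue or red light. Every genotype and light was sampled as roots and as shoots (called leaf in the white-light labels), on phosphate (Pi)-sufficient and Pi-deficient agar medium, with 3 replicates per group in white light and 2 in blue and red light. The labels give 23 °C and 16 h of light per day for all plants, whereas the study's methods describe another temperature and continuous blue and red light. The ages of 4 and 3 weeks are also those of the labels. The study's methods describe younger seedlings for root length and fresh weight and give no separate age for the arrays.

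Levels are given as log2 signal, the log2 of the background-subtracted spot signal relative to the 75th percentile of its array. Levels are compared between samples of 1 gene and never between genes, since probes differ in brightness. Differences are log2 differences with the standard error (SE) of the limma fit, p-values are two-sided with the Benjamini-Hochberg adjustment over every gene in the fit, and a gene was called where the adjusted p was under 0.05. In whole organs, a lower level in every cell and a smaller share of the cells that hold the mRNA cannot be told apart.

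Signal depth differed between the sets, with 45.0% to 66.7% of spots well above background in the light set, 74.9% to 83.7% in the BBX32-SRDX set and 68.5% to 81.5% in the hy5-215 set. The Pi-sufficient shoots under blue light were the shallowest arrays, at 45.0% and 48.5%, against 54.0% to 61.0% in the other shoots of the light set. In blue-light shoots, Pi level and signal depth therefore differ together and cannot be told apart. The organ labels were borne out by marker genes, since all 6 shoot markers were called lower in roots in each organ comparison, and all 8 root markers were called higher in roots in white light, with 6 and 7 of the 7 tested under blue and red light. HY5 itself lay between 1.1 and 1.63 in 6 WT roots and between -0.90 and -0.37 in 6 hy5-215 roots. In shoots it ranged from -2.35 to -0.28 in WT and from -1.82 to -0.61 in the shoots labelled hy5-215. HY5 was thus already low in WT shoots, and its signal could neither bear out nor contradict the label there. Statements on hy5-215 shoots below refer to the labels. BBX32 lay between 5.02 and 6.13 in the BBX32-SRDX roots against -5.92 to -1.92 in their WT.

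**Figure D1:**
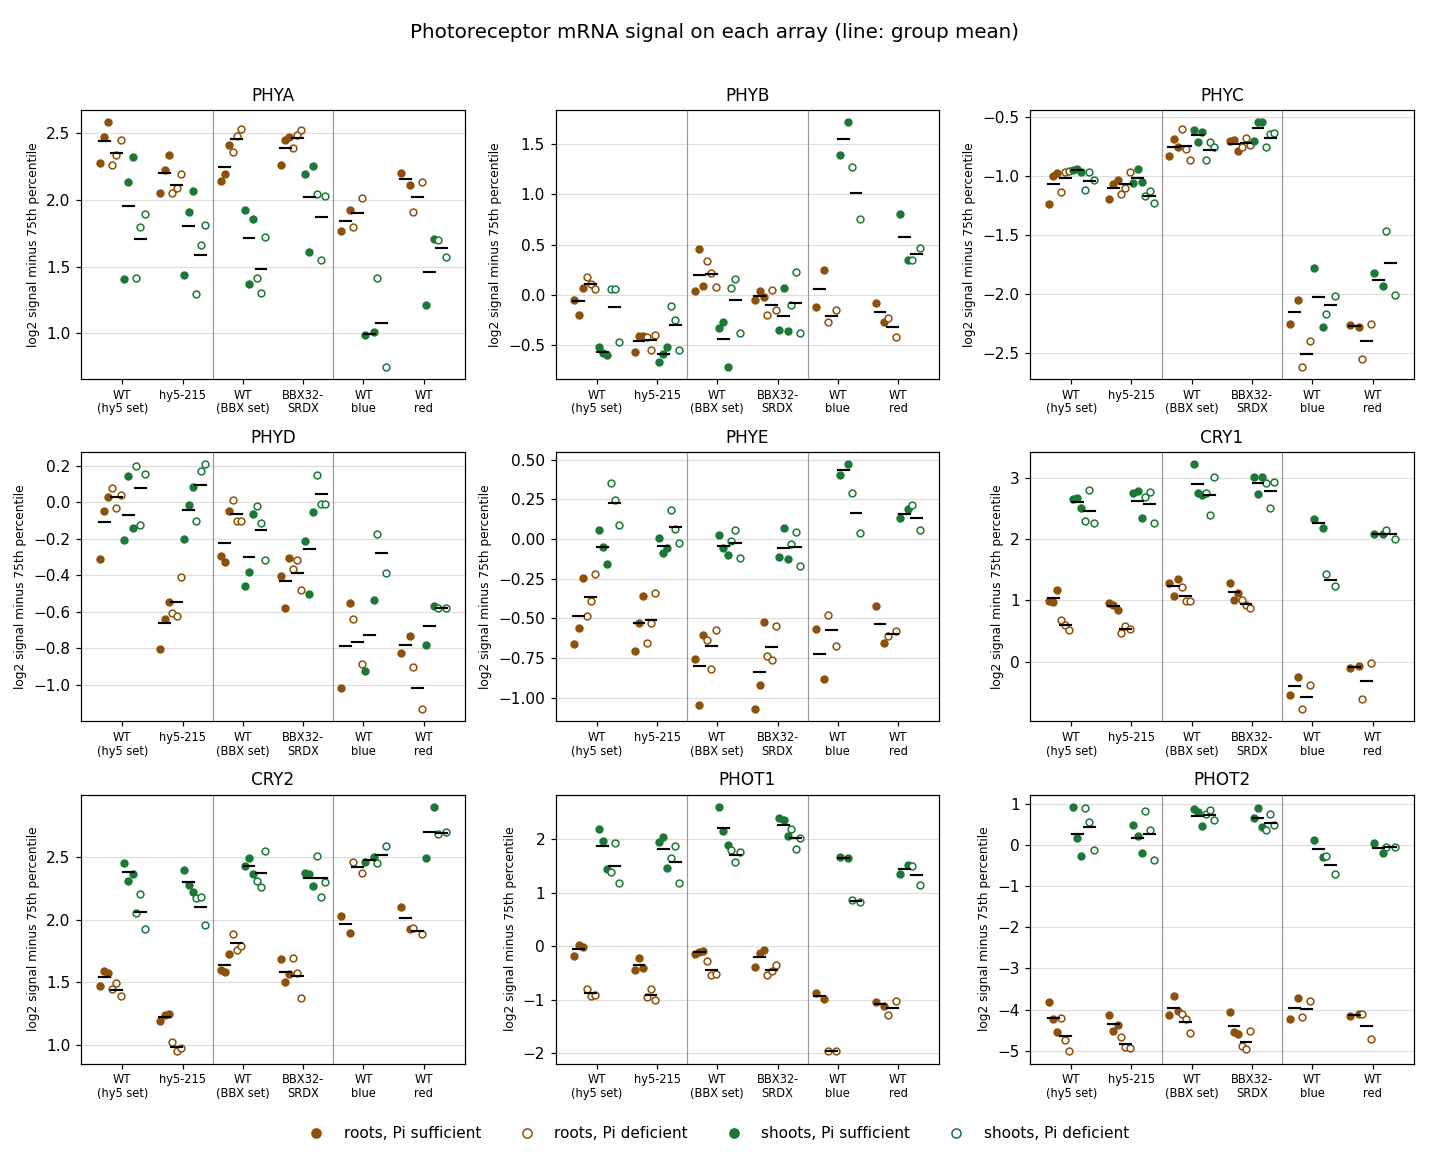
Log2 signal of each photoreceptor gene on all 64 arrays (vertical axis, relative to the array's 75th percentile; its range differs between panels) by set and genotype or light (horizontal axis), with roots in brown, shoots in green, filled points for Pi-sufficient and open points for Pi-deficient plants, and lines at group means. CRY1, PHOT1 and PHOT2 separate by organ in each of the 6 pairs, while PHYB separates by organ only in the blue and red light columns.

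Roots and shoots were compared in WT and hy5-215, in WT and BBX32-SRDX, and in WT under blue and under red light, each averaged over both Pi levels. These fits treated arrays as independent, although arrays of 1 slide were correlated (0.57, 0.50 and 0.15 in the hy5-215, BBX32-SRDX and light sets). Their SE and adjusted p leave this out. With slide as a random block, 42 of the 43 organ calls were kept. By the probe that represents each gene, both phototropins, both cryptochromes and PHYE were lower in roots in all 6 comparisons, whereas PHYA was higher in roots in all 6. Another PHOT2 probe was higher in roots in all 6. The PHOT2 calls under blue and red light, counted below, rest on root values mostly not well above background. The direction for PHYB in WT depended on the set, and PHYC and PHYD mostly missed the threshold. The members called numbered 7 of 9 in the WT of the hy5-215 set (79.0% of all genes tested were called), 7 in hy5-215 (80.9%), 7 in the WT of the BBX32-SRDX set (80.0%), 7 in BBX32-SRDX (81.1%), 7 under blue light (73.8%) and 8 under red light (73.5%). These shares are near the background, so the number of calls in either direction together sets the photoreceptor genes apart in no comparison. By direction, 5 to 7 of 9 members were called lower in roots, where 25.8% to 27.8% of all genes were. Members called higher in roots numbered 1 or 2 of 9, where 47.5% to 53.8% of all genes were. Whether these directional shares differ was not tested, and the sizes below carry the description. The median of all genes tested lay at 0.30 to 0.36 above 0 (between 0.00 and 0.41 over the scalings and filters tried), and the difference from that median is given where it matters.

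PHYA, the light-labile phytochrome that senses far-red light, was the member whose mRNA was higher in roots throughout. Its log2 signal was 2.26, 2.39 and 2.58 (lowest, median and highest) in 6 WT roots of the hy5-215 set and 1.41, 1.85 and 2.32 in 6 WT shoots. The ranges overlapped there through 1 shoot array, and they did not overlap in the WT of the BBX32-SRDX set, where roots lay at 2.14, 2.38 and 2.53 and shoots at 1.3, 1.57 and 1.93. The difference was 0.57 (SE 0.15, adjusted p = 0.00171) and 0.75 (SE 0.13, adjusted p = 2.35e-05) in these WT groups, 0.46 in hy5-215 (adjusted p = 0.00761), 0.48 in BBX32-SRDX (adjusted p = 0.00182), 0.84 under blue light (adjusted p = 0.000656) and 0.54 under red light (adjusted p = 0.0107). Against the median of all genes, PHYA was thus 0.12 to 0.48 higher in roots. With the authors' table of processed values its call was lost in hy5-215 (0.28, adjusted p = 0.0842) and under red light (0.45, adjusted p = 0.305).

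PHYB is the main red light receptor of light-grown plants, and its organ difference in WT had opposite signs in white light and in blue or red light. In white light, WT roots lay at -0.20, 0.06 and 0.18 (hy5-215 set) and 0.04, 0.15 and 0.46 (BBX32-SRDX set), and WT shoots at -0.60, -0.49 and 0.06 and at -0.71, -0.30 and 0.16. Roots were thus on the high side with overlapping ranges, by 0.37 (SE 0.09, adjusted p = 0.00118) and 0.45 (SE 0.12, adjusted p = 0.00303), which is 0.07 and 0.12 above the median of all genes.

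Under blue light, PHYB lay at -0.27, -0.15, -0.12 and 0.24 in the 4 roots and at 0.75, 1.27, 1.38 and 1.71 in the 4 shoots. Under red light it lay at -0.42, -0.26, -0.22 and -0.08 in roots and at 0.34, 0.35, 0.46 and 0.81 in shoots. Every shoot array exceeded every root array in both lights. Roots were lower by 1.35 under blue light (SE 0.16, adjusted p = 1.43e-05) and by 0.74 under red light (SE 0.16, adjusted p = 0.00150), and the call under red light was lost with the authors' table (-0.83, adjusted p = 0.0530).

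In hy5-215 and BBX32-SRDX, also in white light, the PHYB organ difference was -0.01 (adjusted p = 0.903) and 0.09 (adjusted p = 0.501). Against the median of all genes, these were -0.35 and -0.26.

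The other phytochromes differed less between organs. PHYE was lower in roots in all 6 comparisons, by 0.51 to 0.95, with no overlap between the organs in any of them. In the WT of the hy5-215 set, PHYE lay at -0.66, -0.44 and -0.22 in roots and at -0.16, 0.07 and 0.35 in shoots. PHYE's second probe passed the threshold only in hy5-215 (-1.36, adjusted p = 0.00106) and otherwise gave -0.44 to -0.06.

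PHYC was called lower in roots only under red light (-0.53, SE 0.16, adjusted p = 0.00944; -0.74 and adjusted p = 0.0723 with the authors' table). Its white-light differences lay between -0.09 and 0.01, below the median of all genes by 0.33 to 0.44. PHYD, the closest relative of PHYB, was called lower in roots in hy5-215 (-0.63, adjusted p = 3.40e-06) and in BBX32-SRDX (-0.30, adjusted p = 0.00466), but the latter call was lost with slide as a random block (adjusted p = 0.0536). In the 2 WT groups under white light PHYD gave -0.04 and 0.08, and under both blue and red light -0.27, none past the threshold.

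**Figure D2:**
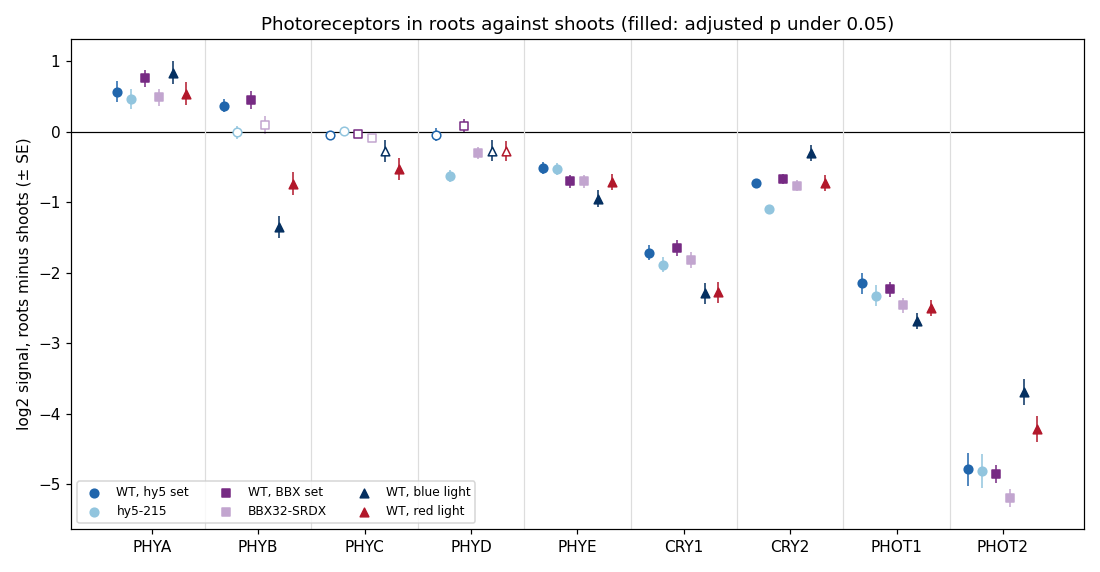
Log2 signal in roots minus shoots (vertical axis, ± SE of the fit) for the 9 genes (horizontal axis) in the 6 comparisons, filled where the adjusted p was under 0.05. PHOT2 lies lowest in white light, from -5.19 to -4.79. Only bounds can be given for it in blue and red light, because most roots there were not well above background. PHYA lies above 0 in all 6, and PHYB lies at -1.35 and -0.74 under blue and red light against 0.37 and 0.45 in the WT groups in white light.

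CRY1, the cryptochrome that acts in bright blue light during seedling de-etiolation, was 3.15- to 3.69-fold lower in roots in white light and 4.86- to 4.89-fold lower under red and blue light. In the WT of the hy5-215 set it lay at 0.51, 0.82 and 1.16 in roots and at 2.27, 2.58 and 2.80 in shoots. Under red light the 4 roots lay between -0.61 and -0.03 and the 4 shoots between 2.01 and 2.14. The organs were far apart on every array, with differences of -2.29 to -1.65 (SE 0.10 to 0.15, adjusted p at most 7.97e-08). CRY1's second probe was also called lower in roots in all 6, by differences of -1.83 to -1.30.

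CRY2 is the cryptochrome that promotes flowering in long days and is degraded under blue light. It was lower in roots by 0.67 to 1.09 in white light, with the largest of these values in hy5-215 (-1.09, SE 0.06, adjusted p = 1.99e-12). Under red light the difference was -0.73 (adjusted p = 0.000128). Under blue light the roots lay at 1.89, 2.03, 2.37 and 2.46 and the shoots at 2.45, 2.46, 2.50 and 2.58, so the highest root reached the lowest shoots. The difference of -0.31 (SE 0.11, adjusted p = 0.0298) was lost in 5 of 16 leave-outs of 1 array and under 7 of 11 other settings, among them quantile normalisation (-0.07, adjusted p = 0.583) and normexp (-0.20, adjusted p = 0.124). The arrays were, with the adjusted p without each, blue Pi-deficient shoot replicate 2 (0.0889), blue Pi-sufficient shoot replicates 1 (0.0563) and 2 (0.0698), blue Pi-deficient root replicate 2 (0.0678) and blue Pi-sufficient root replicate 2 (0.0879). CRY2's second probe gave 0.30 under blue light (adjusted p = 0.0556) and -0.28 under red light (adjusted p = 0.0694).

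PHOT1, the phototropin of weak blue light that also steers roots away from light, was 4.43- to 5.50-fold lower in roots in white light. In the WT of the hy5-215 set it lay at -0.93, -0.48 and 0.01 in roots and at 1.17, 1.69 and 2.18 in shoots. Under blue light the 4 roots lay between -1.96 and -0.87 and the 4 shoots between 0.82 and 1.66. Neither pair overlapped. The differences in blue and red light were -2.69 and -2.50 (SE 0.11 each), 6.45- and 5.65-fold, and the adjusted p was at most 3.15e-09 over all 6 comparisons.

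PHOT2, the phototropin of the chloroplast avoidance response in strong light, had the lowest difference of the 9 genes. Its brightest probe lay at -5.02, -4.39 and -3.83 in WT roots of the hy5-215 set and at -0.27, 0.36 and 0.93 in WT shoots. Roots were 27.6- to 36.6-fold lower in white light, with differences of -4.79, -4.81, -4.85 and -5.19 (SE 0.13 to 0.24, adjusted p at most 9.90e-13). In the light set the probe was well above background on 1 of 4 blue-light roots and on 0 of 4 red-light roots, so only a bound can be given there. Against the level of detection, PHOT2 was at least 9.58-fold lower in roots under blue light and at least 16.7-fold lower under red light. These bounds were not tested. The limma fit used the measured root values, most of them not well above background. The fit gave -3.70 under blue light and -4.22 under red light and called both. Its p-values cannot test the difference on such root values and are not given.

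The 3 PHOT2 probes disagreed. The dimmest probe, annotated to the same transcript as the brightest and well above background on 26 of 64 arrays, was also called lower in roots in all 4 white-light comparisons. The other probe, annotated to another transcript of the locus, was higher in roots in all 6 comparisons, by 1.31 and 1.57 in the WT and hy5-215, by 1.71 and 1.29 in the WT and BBX32-SRDX, and by 2.35 and 1.70 under blue and red light (adjusted p at most 6.45e-05). In the light set this other probe was brighter than the one that represents PHOT2, with a mean of -1.28 against -2.15. It was well above background on 14 of the 16 arrays there, against 9. The organ difference of PHOT2 thus holds for the probe that represents it and not for every probe of the locus, and which transcripts each probe binds was not tested.

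Whether the WT organ difference itself differed between the light set and the white-light sets was tested in a fit of all 64 arrays, a comparison added after the values were seen. Of all genes tested, 52.8% were called in it. PHYB had the difference farthest from 0, lower by 1.45 in the light set (SE 0.13, adjusted p = 9.82e-13). CRY1 was lower by 0.60 (adjusted p = 9.42e-05), PHYC by 0.36 (adjusted p = 0.000398), PHOT1 by 0.40 (adjusted p = 0.0123) and PHYD by 0.29 (adjusted p = 0.0190). CRY2 gave 0.18 (adjusted p = 0.0382), and PHYA (0.03, adjusted p = 0.894) and PHYE (-0.22, adjusted p = 0.0529) were not called. PHOT2 is left out here, since its light-set roots allow only a bound. With slide as a random block, PHYB (adjusted p = 6.54e-08), CRY1 (0.00361) and PHYC (0.0163) were still called, while PHOT1 (0.0793), PHYD (0.204) and CRY2 (0.219) were not. The sets differ at once in light, age, array software version and signal level, which cannot be told apart.

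Over the 24 group means, each centred within its set, PHYE, CRY1, PHOT1 and PHOT2, all lower in roots, had similar patterns. Pearson's r was 0.99 for CRY1 and PHOT1, 0.97 for PHOT1 and PHOT2, 0.95 for PHYE and CRY1, and -0.88 for PHYA and PHYE. PHYB correlated with PHYC at 0.44 and with CRY2 at 0.08. These values describe 24 group means that share organs, slides and controls, and the PHOT2 means of light-set roots include values not well above background.

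Among 23327 candidate genes, the patterns most like each member over the same 24 means were AT3G07150 (r = 0.93) and COP1 (r = 0.91) for PHYB, CYP81H1 (r = 0.87) and SPA4 (r = 0.85) for PHYD, and IDN2 and ATE2 (r = 0.97 and 0.96) for PHYA. PHYC had AT2G43465 and AT5G37130 (r = 0.93 and 0.91), and PHYE had CLPB3 and BEH1 (r = 0.98 each). CRY1 had AT1G28150 (r = 0.996) and AT5G35100 (r = 0.99), CRY2 had HB34 and AT5G24060 (r = 0.97 and 0.96), PHOT1 had AT4G16983 (r = 0.996) and AT5G16030 (r = 0.99), and PHOT2 had AT5G44520 and HDS (r = 0.998 and 0.997).

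The partners of the photoreceptors were read from lists of 40 genes covering chromophore synthesis, nuclear import, PIF and PKS proteins, COP1 and SPA, the signalling partners of cryptochromes and phototropins, and other light receptors. In the WT of the hy5-215 set 26 of 40 were called lower and 6 higher in roots, with a median of -0.91 beside a background of 79.0% called, and in the WT of the BBX32-SRDX set 26 were called lower and 7 higher (80.0%). By direction, 27.6% and 27.5% of all genes were called lower and 51.4% and 52.5% higher in these WT groups. PIF5, a growth-promoting PIF, had a difference of -7.26, the phototropin partner NCH1 of -4.84, and CHUP1, which anchors chloroplasts to actin, of -4.58. The cryptochrome inhibitor BIC1 was higher in roots by 2.86 (SE 0.39). HO3, HO4, PKS4 and BLUS1 were well above background on 0 of 6 WT roots of that set.

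Blue light was compared with red light in WT to ask whether the receptors' own mRNA differed between the wavebands they sense. 3 of the 51 tests passed, PHYB in shoots over both Pi levels, CRY1 in Pi-deficient shoots and PHOT1 in Pi-deficient roots. All 3 calls were lost with the authors' table, and all 3 with no filter on dim probes. In roots, 1 of 8 tested members was called in Pi-deficient plants (6.71% of all genes), 0 of 8 in Pi-sufficient plants (0.296%) and 0 of 8 over both (4.41%). In shoots, it was 1 of 9 in Pi-deficient plants (16.8%), 0 of 9 in Pi-sufficient plants (0.245%) and 1 of 9 over both (15.7%). At an unadjusted p under 0.05, limma gave 2, 0 and 1 members in roots and 3, 1 and 3 in shoots. PHOT2 was not tested in roots, where its probe did not reach the required detection.

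PHYB in shoots lay at 1.27 and 0.75 (Pi deficient) and 1.38 and 1.71 (Pi sufficient) under blue light, and at 0.34 and 0.46 and 0.81 and 0.35 under red light. Blue values were higher at each Pi level, but the lowest blue array lay below the highest red one. The Pi-sufficient blue arrays were those of lowest signal depth. The difference over both Pi levels was 0.79 (SE 0.17, adjusted p = 0.0279), and it was 0.75 and 0.83 on the 2 slides. At each Pi level alone it gave 0.60 (adjusted p = 0.142) and 0.97 (adjusted p = 0.136), and in roots over both levels 0.17 (adjusted p = 0.532). The difference between shoots and roots in this effect did not pass the threshold (-0.62, adjusted p = 0.153).

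This call was lost without any one of 5 of the 8 arrays, which were blue Pi-deficient replicate 1 (adjusted p = 0.0794), blue Pi-sufficient replicate 2 (0.0760), red Pi-deficient replicates 1 (0.0722) and 2 (0.0704) and red Pi-sufficient replicate 2 (0.0856), with differences of 0.66 to 0.92 over all leave-outs.

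CRY1 in Pi-deficient shoots lay at 1.43 and 1.24 under blue light and at 2.14 and 2.01 under red light. Blue values were lower without overlap, by 0.74 (SE 0.15, adjusted p = 0.0201), with -0.71 and -0.77 on the 2 slides. In Pi-sufficient shoots the blue values of 2.33 and 2.18 and the red values of 2.08 and 2.08 gave 0.18 (adjusted p = 0.597). The call in Pi-deficient shoots was lost without any one of the 4 arrays compared (adjusted p = 0.0588 and 0.102 without blue replicates 1 and 2, 0.0848 and 0.0715 without red replicates 1 and 2).

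PHOT1 in Pi-deficient roots lay at -1.95 and -1.96 under blue light and at -1.28 and -1.03 under red light. Blue values were lower by 0.80 (SE 0.17, adjusted p = 0.0343), with -0.66 and -0.94 on the 2 slides. In Pi-sufficient roots, at -0.87 and -0.98 under blue light and -1.04 and -1.12 under red light, the difference was 0.16 (adjusted p = 0.909). The call was lost without any one of the 8 root arrays, with differences of -0.93 to -0.67 and adjusted p from 0.0526 to 0.174.

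CRY2 in Pi-deficient roots lay at 2.46 and 2.37 under blue light and at 1.93 and 1.88 under red light without overlap, and the difference of 0.51 (SE 0.17) did not pass the threshold (adjusted p = 0.127). PHYA in shoots gave -0.51 over both Pi levels (SE 0.18, adjusted p = 0.108). The remaining tests of PHYC, PHYD, PHYE and PHOT2 lay between -0.44 and 0.30.

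None of the 9 members was called for a difference of the light effect between roots and shoots by limma (5.87% of all genes were called, and 2 members had an unadjusted p under 0.05).

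**Figure D3:**
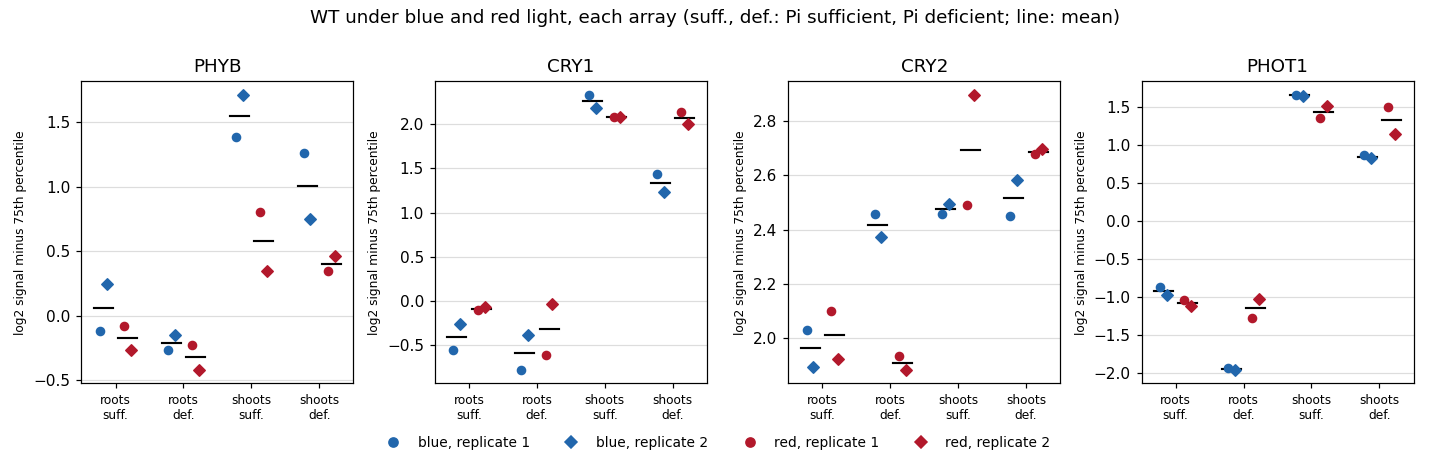
Log2 signal (vertical axis) of PHYB, CRY1, CRY2 and PHOT1 on the 16 arrays of WT under blue light (blue points) and red light (red points) by organ and Pi level (horizontal axis), with the marker giving the replicate and a line at the mean of 2. PHYB shoots under blue light reach 1.71 against at most 0.81 under red light, and the PHOT1 roots of Pi-deficient plants under blue light lie at -1.95 and -1.96.

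Of 38 partners tested, 4 were called higher and 5 lower in shoots under blue against red light over both Pi levels, beside 15.7% of all genes called. HFR1, a transcription factor that blocks PIF binding to DNA, was well above background on 4 of 4 blue-light and 1 of 4 red-light shoots. It was at least 14.3-fold higher under blue light, a bound that was not tested. The limma fit called HFR1 from red-light values mostly not well above background, so its p-value is not given. BIC1 was higher by 1.11 and BIC2, its paralogue, by 0.89, while PIF4 was lower by 1.31 and PIF1 by 0.90. In roots 2 of 31 were called (4.41% of all genes), both higher, SPA4 by 0.89 (SE 0.13) and HFR1 by 0.71 (SE 0.15).

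The hy5-215 and BBX32-SRDX plants were compared with their own WT to ask whether lines altered in light signalling differ in receptor mRNA. In hy5-215 roots PHYB, PHYD and CRY2 were lower at both Pi levels. In the fit without the replicate number as a block, no member was called in shoots of either line or in BBX32-SRDX roots. In hy5-215 roots 3 of 9 members were called in Pi-deficient plants (18.7% of all genes) and 4 of 9 in Pi-sufficient plants (14.5%). In the shoots labelled hy5-215 limma called 0 of 9 at each level (0.186% and 0.0559% of all genes), and 0 members had an unadjusted p under 0.05. In BBX32-SRDX, 0 of 9 were called in Pi-deficient roots (10.6%), Pi-sufficient roots (1.05%), Pi-deficient shoots (0.177%) and Pi-sufficient shoots (0.0280%), with 4, 1, 0 and 0 members at an unadjusted p under 0.05.

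PHYB in Pi-deficient roots lay at 0.18, 0.11 and 0.06 in WT and at -0.41, -0.54 and -0.39 in hy5-215. In Pi-sufficient roots it lay at -0.05, -0.20 and 0.07 and at -0.57, -0.41 and -0.41. All hy5-215 roots were below all WT roots at both levels. The differences were -0.56 (SE 0.08, adjusted p = 0.00127) and -0.40 (SE 0.08, adjusted p = 0.00996), and the latter was not called when only the compared arrays were fitted (adjusted p = 0.0633).

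PHYD in Pi-deficient roots lay at 0.08, -0.03 and 0.04 in WT and at -0.61, -0.62 and -0.41 in hy5-215. In Pi-sufficient roots the values were -0.31, -0.05 and 0.03 against -0.80, -0.64 and -0.54. Again the ranges did not overlap. The differences were -0.58 (SE 0.11, adjusted p = 0.00403) and -0.55 (SE 0.11, adjusted p = 0.00640), 1.49- and 1.47-fold.

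CRY2 in Pi-deficient roots lay at 1.44, 1.49 and 1.39 in WT and at 1.02, 0.95 and 0.98 in hy5-215, and in Pi-sufficient roots at 1.47, 1.59 and 1.57 against 1.19, 1.24 and 1.25. Replicates were close and the genotypes separate, with differences of -0.46 (SE 0.06, adjusted p = 0.000428) and -0.32 (SE 0.06, adjusted p = 0.00418). On each slide the hy5-215 root was lower than its WT for PHYB, PHYD and CRY2, with the smallest slide difference at -0.21 for PHYB.

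PHOT1 in Pi-sufficient roots was lower in hy5-215 by 0.30 (adjusted p = 0.0472), a call lost in 9 of 12 leave-outs and under 10 of 11 other settings. Without 1 array the difference was -0.37 to -0.26, with adjusted p from 0.0280 to 0.152. The 9 arrays were hy5-215 Pi-sufficient replicates 1 and 3, hy5-215 Pi-deficient replicates 1 and 3, WT Pi-sufficient replicates 2 and 3 and WT Pi-deficient replicates 1, 2 and 3.

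In shoots the values of the same genes overlapped. CRY2 in Pi-deficient shoots lay at 2.05, 2.20 and 1.93 in WT and at 2.17, 2.18 and 1.96 in those labelled hy5-215, and PHYD at 0.20, -0.12 and 0.16 against -0.10, 0.17 and 0.21. The effect in roots minus that in shoots was called for PHYD (-0.58, SE 0.13, adjusted p = 0.00593) and CRY2 (-0.37, SE 0.08, adjusted p = 0.00666), where 7.75% of all genes were called. For PHYB it gave -0.38 (adjusted p = 0.0836). These 2 calls compare with shoots whose label could not be checked by HY5 signal, which was already low in WT shoots. For BBX32-SRDX 0 of 9 members were called in the same comparison by limma (5.55% of all genes, 1 member at an unadjusted p under 0.05), with PHYD at -0.39 (adjusted p = 0.0931).

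Replicates with the same number lay on the same slide, and the fit with the replicate number as a block raised the calls of the 8 line comparisons from 7 to 11. It kept all 7 and added PHYA in hy5-215 roots (-0.24 in Pi-deficient plants, adjusted p = 0.00693, and -0.24 in Pi-sufficient plants, adjusted p = 0.00778), PHYE in Pi-deficient hy5-215 roots (-0.14, adjusted p = 0.0392) and PHYD in Pi-deficient BBX32-SRDX roots (-0.32, adjusted p = 0.0465).

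**Figure D4:**
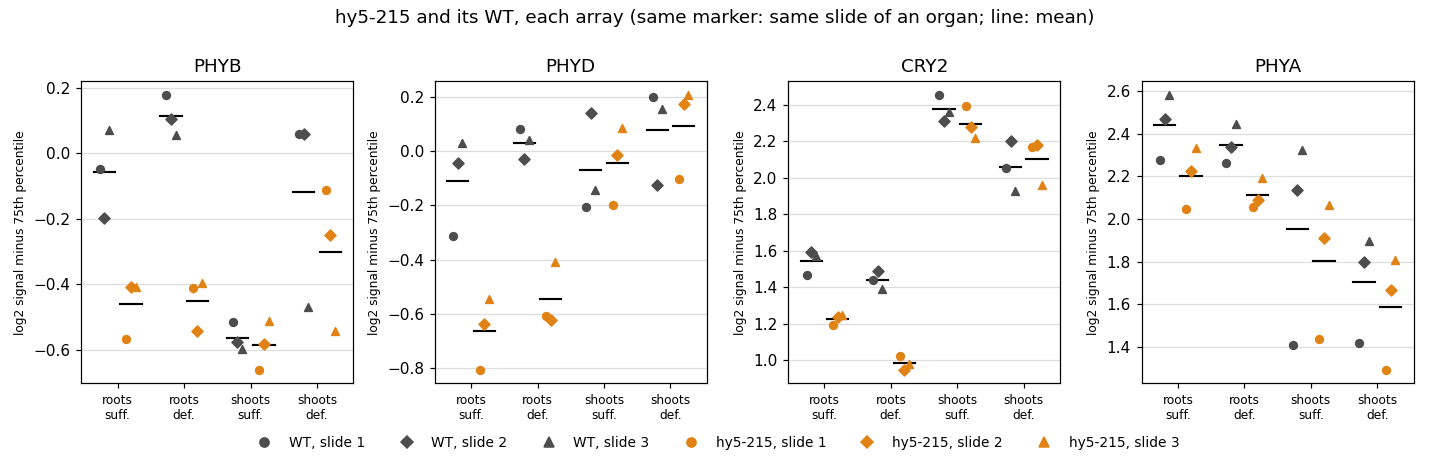
Log2 signal (vertical axis) of PHYB, PHYD, CRY2 and PHYA in the 24 arrays of the hy5-215 set by organ and Pi level (horizontal axis), with WT in grey, hy5-215 in orange, markers for the slides of an organ and lines at means of 3. In roots, the hy5-215 arrays lie below the WT arrays for PHYB, PHYD and CRY2 at both Pi levels, and in shoots the genotypes overlap.

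Of 36 tested partners, 12 were called lower and 1 higher in Pi-deficient hy5-215 roots (18.7% of all genes called), and 13 lower and 2 higher in Pi-sufficient ones (14.5%). By direction, 8.97% and 7.34% of all genes were called lower and 9.73% and 7.16% higher, in that order. In Pi-deficient and Pi-sufficient roots, BIC1 had differences of -6.82 and -6.49 (SE 0.39), CRY3, a cryptochrome of plastids and mitochondria, of -5.10 and -4.85, SPA3 of -3.48 and -2.80, SPA4 of -3.09 and -3.17, and HFR1 of -3.19 and -3.35. NPH3 and RPT2, which transmit the phototropin signal, were lower by 1.39 and 1.87 in Pi-deficient roots, and PKS2 was higher by 0.80.

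In Pi-deficient BBX32-SRDX roots 12 of 37 partners were called lower and 1 higher (10.6% of all genes called), the lower ones including PKS1 (-3.97), HFR1 (-3.04), BIC1 (-2.78) and CRY3 (-2.62), and in Pi-sufficient ones only PKS1 (-1.35, adjusted p = 0.0410; 1.05% of all genes). In the Pi-deficient BBX32-SRDX roots, 5.16% of all genes were called lower and 5.48% higher. In shoots 0 of 40 partners were called in either line at either Pi level.

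Pi deficiency was compared with Pi sufficiency in each genotype, light and organ. Of 106 tests of members 8 passed, all of them lower under Pi deficiency and all in PHOT1, CRY1 or CRY2. In roots, 2 of 9 members were called in the WT of the hy5-215 set (27.0% of all genes), 3 in hy5-215 (13.1%), 0 in the WT of the BBX32-SRDX set (15.0%), 0 in BBX32-SRDX (6.55%), 1 of 8 under blue light (8.08%) and 0 of 8 under red light (3.09%). In shoots, 0 of 9 were called in the WT of the hy5-215 set (18.0%), in hy5-215 (2.26%), in the WT of the BBX32-SRDX set (21.8%), in BBX32-SRDX (3.52%) and under red light (5.66%), and 2 of 9 under blue light (36.9%). Where limma called 0, the members with an unadjusted p under 0.05 were 1, 1 and 0 in roots (WT of the BBX32-SRDX set, BBX32-SRDX, red light) and 3, 0, 1, 0 and 0 in shoots in the order given.

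PHOT1 in WT roots of the hy5-215 set lay at -0.79, -0.93 and -0.91 under Pi deficiency and at -0.17, 0.01 and -0.01 under Pi sufficiency. In hy5-215 roots it lay at -0.95, -0.79 and -1.0 and at -0.44, -0.22 and -0.41. Pi-deficient roots were lower without overlap in both, by 0.82 (SE 0.09, adjusted p = 0.000150) and 0.56 (SE 0.09, adjusted p = 0.00357). With PHOT1's second probe both calls were lost (-0.59, adjusted p = 0.223 in WT, and -0.46, adjusted p = 0.462 in hy5-215). The hy5-215 call was also lost with the mean of all probes (-0.51, adjusted p = 0.119). Fitted with all arrays of the set, it was lost too (adjusted p = 0.174).

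In roots of the BBX32-SRDX set the difference of PHOT1 was -0.33 in WT (SE 0.11, adjusted p = 0.0667) and -0.26 in BBX32-SRDX (adjusted p = 0.226). Under blue light PHOT1 roots lay at -1.95 and -1.96 when Pi deficient and at -0.87 and -0.98 when Pi sufficient, a difference of -1.03 (SE 0.17, adjusted p = 0.0119). Under red light the difference in roots was -0.07 (adjusted p = 0.988).

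The PHOT1 call in blue-light roots was lost without Pi-sufficient replicate 1 (-0.97, adjusted p = 0.0573), with normexp (-0.54, adjusted p = 0.170) and with the authors' table (-1.29, adjusted p = 0.836). In blue-light shoots PHOT1 lay at 0.87 and 0.82 when Pi deficient and at 1.66 and 1.65 when Pi sufficient. It was lower by 0.81 there (SE 0.17, adjusted p = 0.0102), a call lost without Pi-deficient replicate 1 (-0.83, adjusted p = 0.0524) and with the authors' table (-0.47, adjusted p = 0.0787). The Pi-sufficient shoots in this comparison were the arrays of lowest signal depth.

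CRY1 was lower under Pi deficiency in WT roots of the hy5-215 set (0.68, 0.59 and 0.51 against 0.98, 0.97 and 1.16), by 0.45 (SE 0.07, adjusted p = 0.00167), and in hy5-215 roots (0.46, 0.58 and 0.53 against 0.95, 0.92 and 0.84), by 0.38 (adjusted p = 0.00924). In blue-light shoots it lay at 1.43 and 1.24 when Pi deficient and at 2.33 and 2.18 when Pi sufficient. None of these pairs overlapped, and the blue-light difference was -0.92 (SE 0.15, adjusted p = 0.00460), not called with the authors' table (-0.55, adjusted p = 0.0885). This blue-light difference also rests on the Pi-sufficient shoots of lowest signal depth. Fitted with all arrays of the set, the root calls were lost (adjusted p = 0.0524 and 0.192).

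CRY2 was called in hy5-215 roots only, lower by 0.24 (SE 0.06, adjusted p = 0.0201), which was lost in 4 of 12 leave-outs of 1 array. They were hy5-215 Pi-sufficient replicates 2 (adjusted p = 0.0605) and 3 (0.0716) and hy5-215 Pi-deficient replicates 2 (0.0681) and 3 (0.0561).

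Over the 6 comparisons of an organ, the Pi difference of PHOT1 lay below 0 in 6 of 6 in roots (-1.03 to -0.07) and 6 of 6 in shoots (-0.81 to -0.11), and that of CRY1 in 6 of 6 in each organ (-0.45 to -0.17 and -0.92 to -0.01). No phytochrome was called without the replicate block, and their differences ranged from -0.54 to 0.45.

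With the replicate block, 19 Pi tests were called in place of 8, and all 8 were kept. Of the 11 added, 2 were PHOT2 in roots of the hy5-215 set (-0.45, adjusted p = 0.0171 in WT, and -0.50, adjusted p = 0.0196 in hy5-215) and 3 were PHOT1, in WT shoots of that set (-0.37, adjusted p = 0.0395) and in WT roots (-0.33, adjusted p = 0.0418) and shoots (-0.50, adjusted p = 0.0193) of the BBX32-SRDX set. CRY2 (-0.31, adjusted p = 0.0110) and PHYA (-0.25, adjusted p = 0.0494) were added as lower in WT shoots of the hy5-215 set. The 4 others were higher under Pi deficiency, PHYB in WT shoots of both sets (0.45, adjusted p = 0.0266, and 0.38, adjusted p = 0.0126), PHYE in WT shoots of the hy5-215 set (0.28, adjusted p = 0.00553) and PHYA in WT roots of the BBX32-SRDX set (0.21, adjusted p = 0.0317).

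Differences of the Pi effect between lights or lines were called by limma in 0 members. The Pi effect of hy5-215 against WT had 0 of 9 members called in roots (0.550% of all genes) and 0 of 9 in shoots (0%), that of BBX32-SRDX 0 of 9 in roots (0.0711%) and 0 of 9 in shoots (0%), and that of blue against red light 0 of 8 in roots (1.23%) and 0 of 9 in shoots (1.49%), with 0, 0, 0, 0, 2 and 2 members at an unadjusted p under 0.05. The nearest were CRY1 in shoots (-0.92, SE 0.21, adjusted p = 0.0893) and PHOT1 in roots (-0.95, SE 0.25, adjusted p = 0.134), both for blue against red light, so a Pi effect that differs between the lights was not shown for either gene. Among the partners, 3 of 38 were called higher and 16 lower under Pi deficiency in blue-light shoots, where 36.9% of all genes were called, and in the other 11 comparisons at most 5 were called higher and at most 7 lower. Of all genes, 17.7% were called higher and 19.2% lower in those blue-light shoots.

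**Figure D5:**
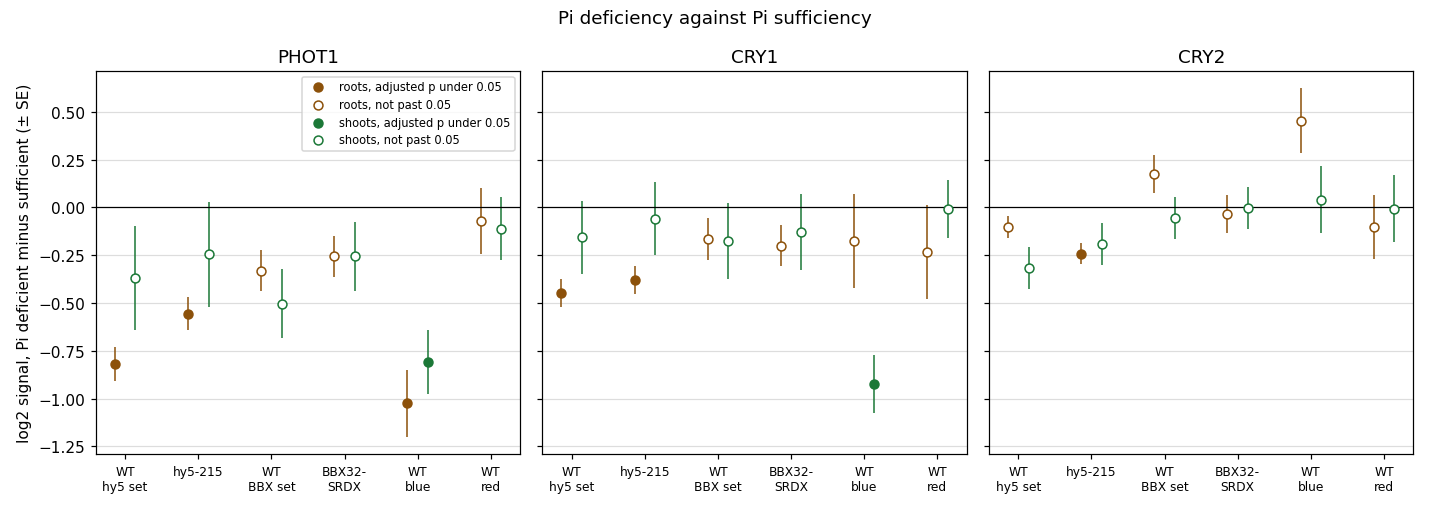
Log2 signal of Pi-deficient minus Pi-sufficient plants (vertical axis, ± SE of the fit) for PHOT1, CRY1 and CRY2 in 6 genotype and light groups (horizontal axis), roots in brown and shoots in green, filled where the adjusted p was under 0.05. All PHOT1 and CRY1 points lie below 0, and the 8 filled points span -1.03 to -0.24.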

How the data were processed

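The files held background-subtracted, spatially detrended spot intensity values, as deposited by the authors from Agilent Feature Extraction (version 9.1.3.1 in 24 arrays and 11.5.1.1 in 40 per the file headers), with median signal, background and flags. A separate table of the authors' processed values is on a natural log scale by comparison with those intensities, and its scaling is not given in the sources used here. Of 43603 probes, 36291 matched 26783 loci through RefSeq accessions or locus names.

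Outlier-flagged spots were left out, spots of a probe averaged, and log2(signal) was taken relative to that array's 75th percentile. A gene took its brightest probe and was tested if every array of some group in the fit had it well above background. Linear models were fitted with limma 3.58.1 (R 4.3.3; Python 3.11.15 elsewhere), per organ and set for light, line and Pi effects and per set for organs, with moderated two-sided tests over all genes. Scripts were tested on simulated data. The exact test of 3 against 3 arrays cannot go below p = 0.1, nor that of 2 against 2 below 0.333, so tests rest on the spread pooled over genes by limma. Per the study's methods the replicates are biological.

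The photoreceptor genes and partner lists were chosen with earlier results of these data known. The text names all members, at most the 3 highest and 3 lowest partners of a list past the threshold in a contrast, and the 2 genes whose group means correlate best with each member.

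Each of 16 slides held the 4 groups of 1 organ for 1 replicate number. Deviations from group means correlated on the same slide with a mean r of 0.426 and 0.534 (roots and shoots, hy5-215 set), 0.451 and 0.476 (BBX32-SRDX set) and 0.219 and 0.185 (light set). Every pair exceeded 0.1 in the white-light sets, where the number therefore pairs the samples, but not in the light set with its 2 slides per organ. Each group kept its place on the slides, and roots and shoots had separate slides, so place and group, and slide and organ, cannot be told apart beyond a random block. Alternatives covered scaling, background, the dim-probe filter, probe choice, the samples in the fit, the replicate block, a fold limit and leaving out each array. Precision is limited by the number of arrays.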

Additional observations from a re-analysis of the deposited data

Results flagged for a closer look

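In 8 results the same contrast differed between 2 settings by a test of the difference itself. The hy5-215 effect differed between roots and shoots for PHYD (-0.58, SE 0.13) and CRY2 (-0.37, SE 0.08), where the shoots labelled hy5-215 did not differ from WT in HY5 signal. The WT organ difference in the light set differed from that in the white-light sets, a comparison added after the values were seen, for PHYB (-1.45), CRY1 (-0.60), PHOT1 (-0.40), PHYC (-0.36), PHYD (-0.29) and CRY2 (0.18), where 52.8% of all genes were called. With slide as a random block PHOT1 (adjusted p = 0.0793), PHYD (0.204) and CRY2 (0.219) were no longer called by limma. The light, plant age and signal level of these sets differ together and cannot be told apart. Software version differs only for the BBX32-SRDX set.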

How the results depend on the processing

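The calls of members numbered 43 for organs, 3 for blue against red light, 7 for the lines, 8 for Pi and 2 for differences between effects. A fold change of at least 2 left 20, 0, 0, 1 and 0 of them. Blue against red light gave 1 call with the authors' table, which was none of the 3. It gave 0 with no filter on dim probes, 1 with the second probe and 1 with only the compared arrays. Pi gave 5 calls with the mean of all probes and 4 with the second probe, and differences between effects gave 1 with the second probe. The replicate block, which pairs arrays of the same slide, gave 11 calls for the lines and 19 for Pi and left the counts of 43, 3 and 2 as they were. Leaving out 1 array gave 42 to 43, 1 to 3, 6 to 7, 7 to 9 and 2 to 3 calls.

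Among results called in the main setting or the alternative, the sign turned for PHOT2 in roots against shoots with its second probe (1.31, 1.57, 1.71, 1.29, 2.35 and 1.70), for CRY2 under blue light with its second probe (0.30) and for PHYC of hy5-215, called only with the authors' table (-0.17). Of the uncalled tests, 5 of 11, 15 of 48, 37 of 65, 46 of 98 and 38 of 78 changed sign under some alternative or leave-out. Apart from the fold limit, 24 of 43, 0 of 3, 5 of 7, 0 of 8 and 1 of 2 calls were kept under every alternative, and 42, 0, 6, 5 and 2 in every leave-out of 1 array. The causes were not tested. Low signal limits the light set, where the probe that represents PHOT2 could not be tested in roots, although another PHOT2 probe was brighter there.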
